A study of Mus musculus with 9 samples.

Results

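The interferon regulatory factors are a family of DNA-binding proteins that switch on interferon genes and carry out the response to interferon. They were examined here in peritoneal exudate cells of Apoe-deficient mice. The members were the rows of the deposited gene table whose name is Irf1, Irf2, Irf3, Irf4, Irf5, Irf7, Irf8 or Irf9, which gave 8 genes of 41096. All 9 libraries came from Apoe-deficient mice (genotype APOE-/-), whose lipoprotein clearance is impaired, so the controls carry the same deficiency and ate the same western diet for 8 weeks. The 5 control libraries (control 1 to 5) came from mice given citrate buffer. The 4 diabetic libraries (diabetic 1 to 4) came from mice injected with streptozotocin, which kills the insulin-producing cells of the pancreas (40 mg/kg daily, 5 injections from an age of 8 weeks). Thioglycollate, an irritant that recruits leukocytes, was given to every mouse (1.5 mL of a 3% solution), and the exudate was washed out 3 days later. The series concerns diabetes and atherosclerosis, and diabetic against control is the comparison its design implies. The labels give neither the sex of the mice nor whether a library is 1 mouse or a pool, so the tests measure the spread between these libraries, which may be technical in part.

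The samples are labelled as peritoneal macrophages, and the labels name no step that would remove other cells. Of 14 macrophage markers listed, 13 were in the table, with a summed level of 3777 to 5931 FPKM in control and 2917 to 4766 FPKM in diabetic libraries. FPKM counts sequenced fragments per kilobase of gene, so levels can be compared between genes. The deposited values were scaled between libraries by median-of-ratios size factors rather than by the read total of each library. Adgre1, which encodes the macrophage protein F4/80, stood at 256 to 310 FPKM in control and 185 to 310 FPKM in diabetic libraries. Of 12 macrophage markers tested, 11 had negative log2 fold changes (median -0.26), and 1, Mrc1, passed as lower. Of 18 large peritoneal macrophage markers tested, 15 had positive ones (median 0.33), and 1, Naip1, passed as higher. With 1 library left out, 0 to 1 macrophage markers passed as lower. In those fits 0 to 2 large peritoneal macrophage markers passed as higher and 0 to 1 as lower. Markers of other cells were present too. Of 22 T cell markers tested 22 passed as higher in diabetic libraries, but Lef1 and Icos, under 1 FPKM in every control, entered the fit only through their level in the diabetic group. The count was 10 of 20 without diabetic 4 and 13 of 20 without diabetic 2. Their summed level was 77.3 to 126 FPKM in control against 216 to 920 FPKM in diabetic libraries. For B cells 4 of 18 markers passed as higher (summed level 1144 to 2367 against 1749 to 3702 FPKM), 7 without diabetic 3 and 9 without control 2 and diabetic 3. NK cell markers passed as higher in 3 of 12 (54.2 to 106 against 110.2 to 143 FPKM summed), and in 1 of 12 without diabetic 2. Mast cell markers had negative log2 fold changes in 8 of 8 (median -0.69, summed level 288 to 712 against 115 to 383 FPKM), of which 0 passed by limma, 2 without control 2, and 1 without diabetic 1 or without control 2 and diabetic 3. Of 5 eosinophil markers (median -1.27, summed level 42.2 to 121 against 54.2 to 136 FPKM) 0 passed, 3 were lower without control 2 and 1 without control 4, and 1 was higher without diabetic 3. Without control 2 and diabetic 3 they gave 1 higher and 2 lower. In a bulk library, more cells of a type and more RNA per cell cannot be told apart. Control 2 and diabetic 3 stood apart most from their own groups, with the lowest library weights in the fit.

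Irf proteins share an amino-terminal DNA-binding domain that recognises the GAAA repeats of interferon-stimulated response elements. Irf3 and Irf7 are phosphorylated downstream of nucleic acid sensors and Toll-like receptors and turn on type I interferon genes. Irf9 is the DNA-binding subunit of the complex ISGF3, which carries the signal of the type I interferon receptor to the nucleus. Irf1 is induced by gamma interferon, and Irf2 competes with it for the same sites. Irf5 drives inflammatory cytokine genes in macrophages. Irf4 and Irf8 bind weakly alone and act with partners such as PU.1 and BATF in the development of macrophages, dendritic cells and B cells.

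Gamma-activated sites, the palindromes bound by STAT dimers, are shown for the promoters that hold one, because Irf1, the member with the clearest difference, is known as a gamma interferon response gene. The search used TTCNNNGAA, which reads the same on either strand, and GAAA, any pair of bases, GAAA, the core of an interferon-stimulated response element, on both strands. It covered windows from 250 bases before to 50 after each RefSeq gene start on GRCm38.p6. All 8 members had a window, 11 in all. A gamma-activated site match was found in the windows of 3 members (Irf1, Irf2 and Irf8), against 8.30% of all 32851 windows and 8.14% of the tested genes with a window. A response element core was found for 1 member, Irf2, against 3.44% of all windows. Neither set of letters occurs in the windows of Irf3, Irf4, Irf5, Irf7 and Irf9, which says nothing of sites elsewhere. The matched stretches follow, 5′ to 3′ on the strand of the gene, with the matches in capitals. That of Irf1 is chr11:53769899-53769957 (plus strand), that of Irf8 chr8:120736162-120736238 (plus strand) and that of Irf2 chr8:46739495-46739554 (plus strand). In Irf2 the first match is the response element core and the second the gamma-activated site.
Irf1: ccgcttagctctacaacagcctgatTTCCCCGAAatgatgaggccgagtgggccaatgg
Irf8: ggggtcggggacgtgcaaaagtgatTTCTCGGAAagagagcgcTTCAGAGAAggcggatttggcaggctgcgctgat
Irf2: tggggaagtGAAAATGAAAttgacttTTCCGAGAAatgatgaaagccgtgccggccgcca
The Irf1 match ends 82 bases before the gene start, the nearer Irf8 match 145 bases before it and the Irf2 site 216 bases before it. A match describes these letters only and is not a binding site measured in these cells.

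All 8 members were well expressed, and all 8 passed the filter of the fit (FPKM of at least 1 in at least 4 libraries), with 945 to 7634 reads per library and gene. Irf1 rose in diabetic libraries, and it was the only one of the 8 that passed at an adjusted p below 0.05 by limma over 11193 genes, where 2.68% of all genes were called higher. No member was called lower (0 of 8, against 2.08% of all genes). At an unadjusted p below 0.05 the counts were 4 higher (11.1% of all genes) and 0 lower (11.3% of all genes). By voom, run on whole reads, they were 2 higher (3.2% of all genes) and 0 lower (2.7% of all genes). The count of 1 became 2 without control 2, and 2 without control 2 and diabetic 3, with Irf9 as the second. In Irf1, Irf8 and Irf9 every diabetic library lay above every control library. Such separation upward was found for 3 of 8 members and for 4.82% of all tested genes. The median log2 fold change of the 8 was 0.28, beside -0.013 over all tested genes. Fold changes here are diabetic minus control on the log2(FPKM + 1) scale, with the standard error (SE) of the fit.

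**Figure D1:**
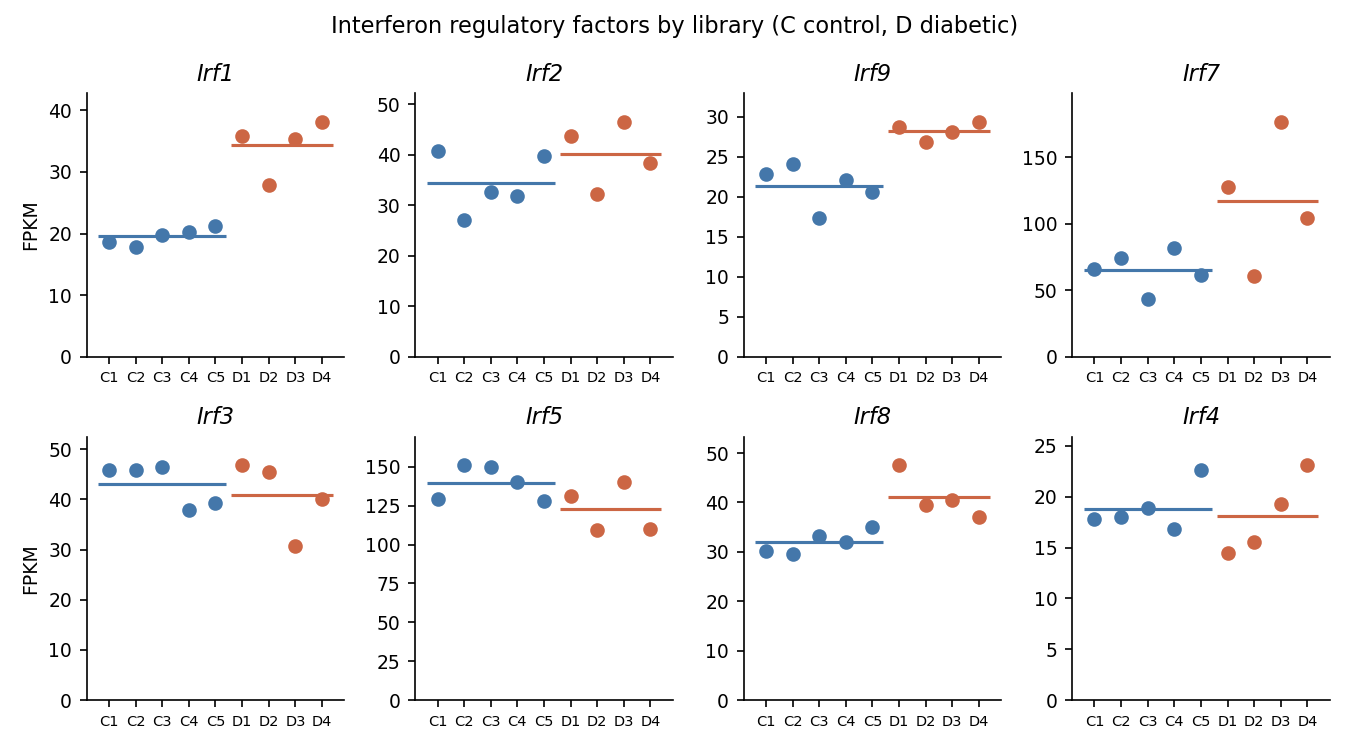
Level of each member in FPKM (vertical axis, linear, from 0) in the 5 control libraries (C1 to C5, blue) and the 4 diabetic libraries (D1 to D4, orange), with a line at each group mean. The groups separate for Irf1, Irf9 and Irf8, while for Irf7 diabetic 2 (60.4 FPKM) lies among the controls.

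Irf1, the activator induced by gamma interferon (identifier MGP_C57BL6NJ_G0018696, chromosome 11, 54790564 to 54798923, plus strand), had 18.6, 17.9, 19.8, 20.3 and 21.2 FPKM in control 1 to 5. It had 35.8, 27.9, 35.4 and 38.2 FPKM in diabetic 1 to 4. The controls were tight and the groups far apart, with diabetic 2 the lowest of the diabetic libraries and still well above every control. The means were 19.5 ± 1.34 (SD, n = 5) and 34.3 ± 4.46 FPKM (SD, n = 4), a ratio of 1.75. Its log2 fold change was 0.77 (SE 0.11, 95% interval 0.54 to 1.01), with adjusted p = 0.0055 by limma, the 35th smallest p of 11193 genes. The position is in the table's own coordinates. GRCm38 and mm10 are the builds in the submitters' processing notes, whereas the identifiers are of a C57BL/6NJ gene set, so these positions are not to be set beside the GRCm38.p6 ones. The call held in all 9 fits that left out 1 library (log2 fold change 0.72 to 0.87, adjusted p = 0.0050 to 0.028). Gm17334, on the opposite strand, overlaps Irf1 over 907 bases and had 0.154 to 0.524 FPKM in control and 0.149 to 0.561 FPKM in diabetic libraries, and whether the counting used strand is not given in the sources used here.

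Activated T cells also express Irf1, and T cell markers were far higher in the diabetic libraries. On the mean of the 22 tested T cell markers, in log2 units from the control mean, diabetic 1 to 4 stood at 1.91, 2.64, 0.97 and 2.46. On the same scale Irf1 stood at 0.84, 0.49, 0.83 and 0.93. The library with the most T cell RNA, diabetic 2, thus had the lowest Irf1 of the diabetic group, and the library with the least, diabetic 3, had an Irf1 level close to those of diabetic 1 and 4. On the same scale the 12 tested NK cell markers averaged 0.58, 0.13, 0.80 and 0.70 in diabetic 1 to 4. The controls held -0.20 to 0.50. Among diabetic libraries this NK cell mean, like Irf1, was lowest in diabetic 2, where the mean lay within the control range. No marker that defines T cells was at 0 in all libraries, and the part of T or NK cells in the Irf1 difference was not tested.

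**Figure D2:**
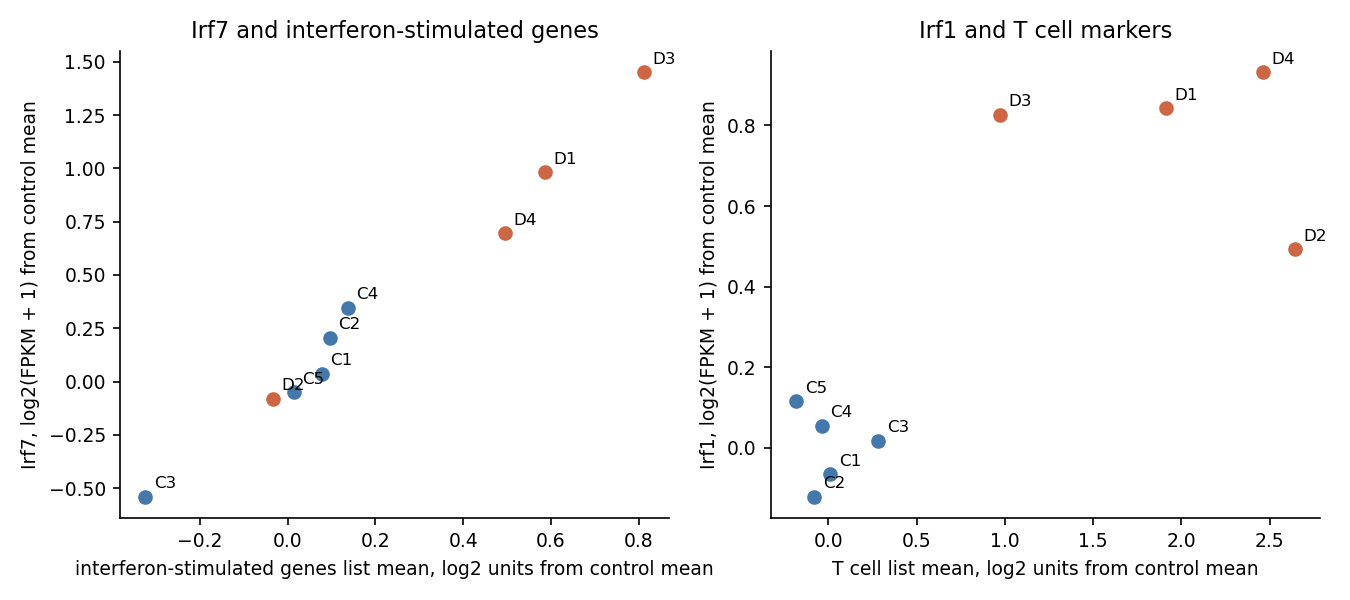
Left, Irf7 against the mean of 27 interferon-stimulated genes. Right, Irf1 against the mean of 22 T cell markers. All axes are differences from the control mean in log2(FPKM + 1) units, with 1 point per library (C1 to C5 control, D1 to D4 diabetic). Irf7 falls with the interferon-stimulated genes into the same order over the 9 libraries, whereas D2 has the highest T cell mean (2.64) and the lowest diabetic Irf1 (0.49).

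Irf2, the antagonist of Irf1 (chromosome 8, 47591795 to 47708659, plus strand), had 27.2 to 40.7 FPKM in control (34.5 ± 5.72, SD, n = 5) and 32.2 to 46.6 FPKM in diabetic libraries (40.3 ± 6.33, SD, n = 4). The groups overlapped, and its log2 fold change of 0.22 (SE 0.15, 95% interval -0.10 to 0.54) did not pass (adjusted p = 0.41 by limma). The ratio of Irf1 to Irf2 in FPKM was 0.457, 0.657, 0.604, 0.636 and 0.532 in control 1 to 5 and 0.817, 0.864, 0.760 and 0.992 in diabetic 1 to 4. Irf2 exceeded Irf1 in all 9 libraries, and the diabetic ratios were all above the control ratios.

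Irf9, the DNA-binding subunit of ISGF3 (chromosome 14, 52134307 to 52140772, plus strand), had 22.9, 24.1, 17.4, 22.1 and 20.5 FPKM in control 1 to 5 and 28.7, 26.9, 28.1 and 29.4 FPKM in diabetic 1 to 4. The diabetic libraries were close together, all above the controls, and control 3 was the lowest of the 9. Means were 21.4 ± 2.59 (SD, n = 5) and 28.3 ± 1.06 FPKM (SD, n = 4). The log2 fold change was 0.39 (SE 0.10, 95% interval 0.16 to 0.62) and just missed the threshold (adjusted p = 0.057 by limma), and it passed in 5 of 20 alternative fits (adjusted p = 0.023 to 0.17 over all 20). Among fits that left out 1 library it passed without control 2 only (adjusted p = 0.048). Irf9 overlaps Rnf31 on the same strand over 123 bases, and Rnf31, a ubiquitin ligase subunit, had 11.3 ± 1.39 (SD, n = 5) and 12.2 ± 1.06 FPKM (SD, n = 4).

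Irf7, the member that amplifies type I interferon production (chromosome 7, 151794393 to 151798168, minus strand), had 65.6, 73.9, 43.7, 81.5 and 61.7 FPKM in control 1 to 5 and 127, 60.4, 177 and 104 FPKM in diabetic 1 to 4. It varied most within the diabetic group. Diabetic 3 was the highest library, diabetic 1 and 4 were above every control, and diabetic 2 was below 4 of the 5 controls. Means were 65.3 ± 14.3 (SD, n = 5) and 117 ± 48.4 FPKM (SD, n = 4), a ratio of 1.79, as large as that of Irf1 but with a far wider spread. The log2 fold change of 0.76 (SE 0.28, 95% interval 0.13 to 1.39) did not pass (adjusted p = 0.15 by limma). It was 1.04 without diabetic 2 (adjusted p = 0.054) and 0.53 without diabetic 3 (adjusted p = 0.22), so these libraries set its size. Phrf1, on the opposite strand, overlaps Irf7 over 45 bases and had 7.65 to 9.32 FPKM in control and 7.86 to 10.5 FPKM in diabetic libraries.

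Irf3, the constitutive partner of Irf7 in interferon induction (chromosome 7, 47483211 to 47488468, plus strand), had 38.0 to 46.4 FPKM in control (43.0 ± 4.08, SD, n = 5) and 30.7 to 46.8 FPKM in diabetic libraries (40.8 ± 7.28, SD, n = 4). Its log2 fold change of -0.089 (SE 0.13, 95% interval -0.38 to 0.20) did not pass (adjusted p = 0.74 by limma), and its sign turned without diabetic 3 (0.036). Diabetic 3, the library with the highest Irf7, had the lowest Irf3 of the 9 (30.7 FPKM). The ratio of Irf7 to Irf3 was 0.942 to 2.15 in control libraries and 2.72, 1.33, 5.75 and 2.60 in diabetic 1 to 4, with diabetic 2 inside the control range.

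Irf5, which drives inflammatory cytokine genes in macrophages (chromosome 6, 28112030 to 28127275, plus strand), was the most abundant member per length in 8 of the 9 libraries. It had 128 to 151 FPKM in control (139.8 ± 10.9, SD, n = 5) and 109.5 to 139.9 FPKM in diabetic libraries (123 ± 15.4, SD, n = 4), and the groups overlapped. The log2 fold change was -0.19 (SE 0.11, 95% interval -0.44 to 0.055) and did not pass (adjusted p = 0.34 by limma). Tnpo3, on the opposite strand, overlaps Irf5 over 1044 bases at 3.71 to 4.70 FPKM over the 9 libraries.

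Irf8, a factor of monocyte, dendritic cell and B cell development (chromosome 8, 128318723 to 128340680, plus strand), had 30.3, 29.7, 33.1, 32.0 and 34.95 FPKM in control 1 to 5 and 47.5, 39.4, 40.5 and 37.0 FPKM in diabetic 1 to 4. All diabetic libraries were above all controls, with diabetic 1 the highest and diabetic 4 nearest to the controls. Means were 32.0 ± 2.15 (SD, n = 5) and 41.1 ± 4.52 FPKM (SD, n = 4). The log2 fold change of 0.35 (SE 0.099, 95% interval 0.13 to 0.57) did not pass (adjusted p = 0.073 by limma), nor in any of the 9 fits that left out 1 library (lowest adjusted p = 0.068). B cells express Irf8 too. The mean of 18 B cell markers, in log2 units from the control mean, was 0.96, 1.12, 0.24 and 1.35 in diabetic 1 to 4, and -0.46 to 0.38 in the controls. Diabetic 4, with the most B cell RNA, had the lowest diabetic Irf8. The mean of 18 large peritoneal macrophage markers was 0.69, 0.58, 0.21 and -0.099 in diabetic 1 to 4, and -0.37 to 0.23 in the controls. Like Irf8, it was highest in diabetic 1 and lowest in diabetic 4 of the diabetic libraries, but diabetic 2 and 3 stood in the other order. The part of B cells or of large peritoneal macrophages in the Irf8 values was not tested. Of 7 tested genes of the cross-presenting dendritic cell list, which depends on Irf8, 4 had positive and 3 negative log2 fold changes (median 0.0082). Batf3 passed as lower, a call kept in 3 of the 9 fits that left out 1 library, and the other 6 did not pass. Without control 2, and with library weights, 1 gene passed as higher and 1 as lower. The defining markers Xcr1 and Clec9a stood at 0.167 to 0.706 and 0.432 to 1.57 FPKM over the 9 libraries.

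Irf4, the member of alternatively activated macrophages, plasma cells and activated lymphocytes (chromosome 13, 29615202 to 29632879, plus strand), had 16.8 to 22.7 FPKM in control (18.8 ± 2.26, SD, n = 5) and 14.5, 15.5, 19.3 and 23.1 FPKM in diabetic 1 to 4 (18.1 ± 3.92, SD, n = 4). The diabetic libraries held both the lowest and the highest value of the 9. Its log2 fold change was -0.070 (SE 0.14, 95% interval -0.38 to 0.24, adjusted p = 0.81 by limma), and the sign turned without diabetic 1 (0.023). The ratio of Irf8 to Irf4 was 1.54 to 1.91 in control libraries and 3.28, 2.54, 2.10 and 1.60 in diabetic 1 to 4.

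**Figure D3:**
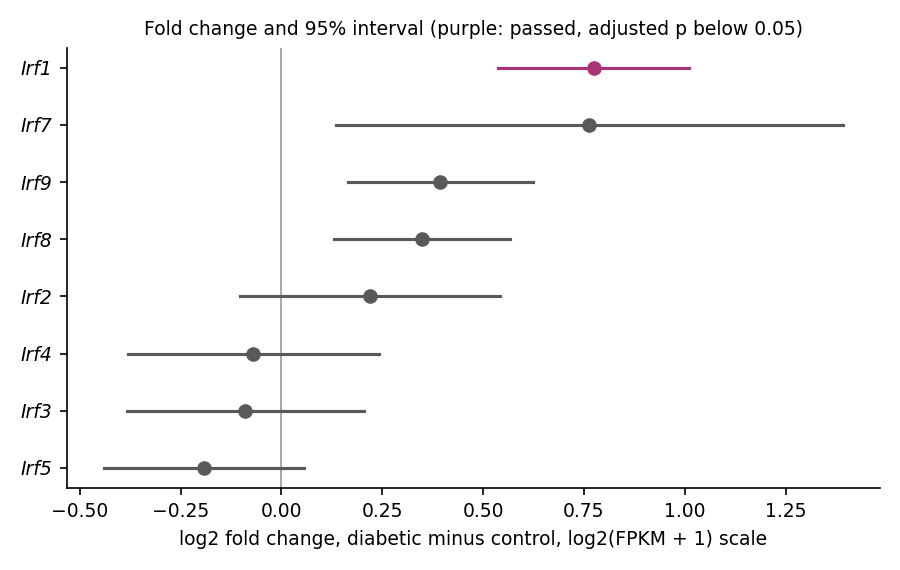
Log2 fold change, diabetic minus control, on the log2(FPKM + 1) scale (horizontal axis) for the 8 members, with lines for the 95% interval of the limma fit. Irf1 (0.77) is drawn in purple as the member that passed, Irf7 (0.76) has the widest interval, and the intervals of Irf2, Irf3, Irf4 and Irf5 include 0.

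The order of the members by mean FPKM in control libraries was Irf5 (139.8), Irf7 (65.3), Irf3 (43.0), Irf2 (34.5), Irf8 (32.0), Irf9 (21.4), Irf1 (19.5) and Irf4 (18.8). Only the step from Irf5 to Irf7 and that from Irf8 to Irf9 exceeded the ranges of the control libraries. All other neighbours overlapped. In diabetic libraries the order was Irf5 (123), Irf7 (117), Irf8 (41.1), Irf3 (40.8), Irf2 (40.3), Irf1 (34.3), Irf9 (28.3) and Irf4 (18.1), and the steps without overlap were from Irf7 to Irf8 and from Irf9 to Irf4. Irf1 held places 6 to 8 of the family in the controls, with place 6 in control 3. It held place 6 in diabetic 1 and 2 and place 5 in diabetic 3 and 4. Diabetic 3 was the library in which Irf7 exceeded Irf5.

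As a share of the summed FPKM of the 8 members, Irf5 made up 34.8 to 41.5% in control and 26.1 to 30.6% in diabetic libraries, without overlap. The share of Irf1 was 4.61 to 5.76% in control and 6.84 to 9.08% in diabetic libraries, also without overlap. The share of Irf7 ran from 12.1 to 21.3% in control and from 16.9 to 34.2% in diabetic libraries. Shares within a sum are tied to each other, so a larger Irf7 lowers that of Irf5. In diabetic 2, however, the Irf7 share (16.9%) lay inside the control range, and the Irf5 share (30.6%) was still below every control. Irf5 itself stood at 109.5 FPKM there, below every control. What set the Irf5 share was not tested. The summed level of the family was 362 to 388 FPKM in control and 357 to 517 FPKM in diabetic libraries.

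**Figure D4:**
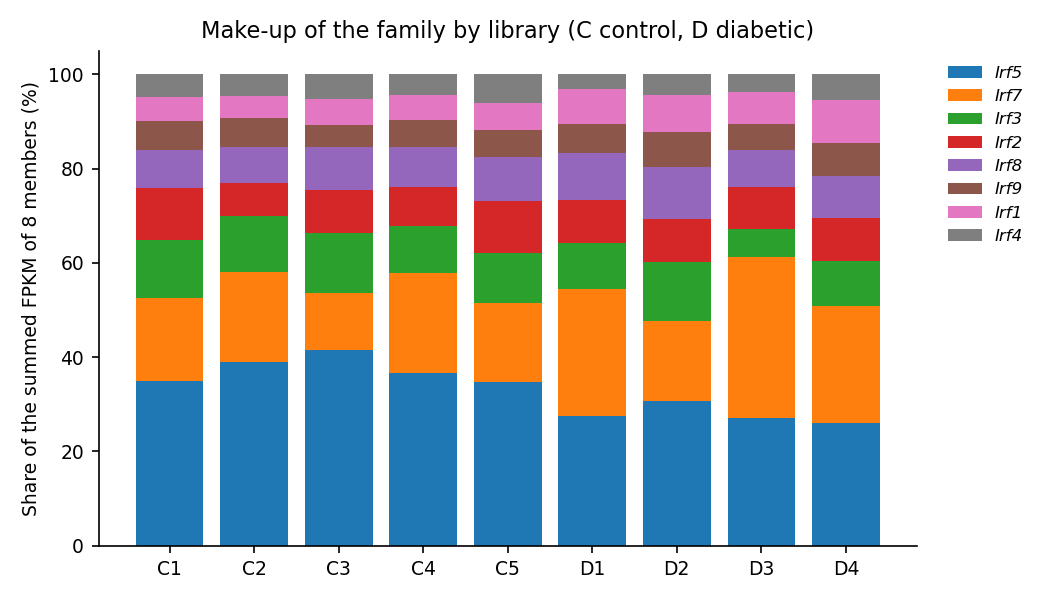
Share of each member in the summed FPKM of the 8 members (vertical axis, percent) in each library (C1 to C5 control, D1 to D4 diabetic). The Irf5 share is 34.8 to 41.5% in control and 26.1 to 30.6% in diabetic libraries, and Irf7 reaches 34.2% in D3.

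The genes whose pattern over the 9 libraries was most like that of Irf1 were Nlrc5, Rnase6 and Tap1. Likeness was the root mean square difference of log2(FPKM + 1) after centring each gene on its own mean, over 9792 genes (predicted genes, pseudogenes and antigen receptor segments left out). It was 0.082 for Nlrc5, 0.11 for Rnase6 and 0.13 for Tap1, against a median of 0.46 over all genes compared and a value of 0.41 for Irf1 against a flat line. These genes were picked for likeness to Irf1 over the same libraries, so a low value in diabetic 2 follows from how they were picked. Nlrc5, the transactivator of MHC class I genes, had 5.23 ± 0.302 (SD, n = 5) and 10.1 ± 1.41 FPKM (SD, n = 4), with 7.99 FPKM in diabetic 2. Tap1, a subunit of the peptide transporter of class I presentation, had 27.3 ± 1.42 (SD, n = 5) and 43.2 ± 7.26 FPKM (SD, n = 4), with 32.7 FPKM in diabetic 2. Rnase6, a secreted antimicrobial ribonuclease, had 42.3 ± 2.70 (SD, n = 5) and 66.7 ± 11.4 FPKM (SD, n = 4).

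Upstream of the family, the kinases and adaptors that activate Irf3, Irf5 and Irf7 mostly did not pass. Of 19 tested, 1 was higher and 0 lower by limma, and the median of their log2 fold changes was -0.073. The one called was Tmem173, the adaptor STING of cytosolic DNA sensing, with 32.7 ± 2.16 (SD, n = 5) and 45.4 ± 4.03 FPKM (SD, n = 4; adjusted p = 0.025). Its call ended in 6 of the 9 fits that left out 1 library, those without control 1, 4 or 5 or diabetic 1, 2 or 4.

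Interferon genes themselves were near or at 0. Of 16 in the table none reached the filter, and 12 had no read in any library, most of them alpha interferon genes, where a count of 0 allows up to 3 reads in a library. Ifnb1, the beta interferon gene, had 4 reads in all, all in diabetic 3. Ifng, the gamma interferon gene, had 24 reads in the controls together and 24 in the diabetic group (0 to 0.533 and 0.168 to 0.463 FPKM). A difference in these genes was not detectable at this depth, and the alpha genes are close copies whose reads the counting may have split or dropped.

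Among the interferon receptor, JAK and STAT genes, Stat4, a STAT of T and NK cells, had 2.26 to 4.91 FPKM in control and 6.32 to 9.52 FPKM in diabetic libraries (log2 fold change 0.93, adjusted p = 0.018 by limma), and its call ended without diabetic 2 or 4. Stat2, a subunit of ISGF3, had 11.5 ± 1.53 (SD, n = 5) and 18.8 ± 4.60 FPKM (SD, n = 4) and did not pass (adjusted p = 0.053), and is named as the partner of Irf9, outside the rule for named genes and with its values known. The receptor chains Ifnar1 and Ifnar2 had log2 fold changes of -0.26 and -0.21 (adjusted p = 0.20 and 0.36) and are likewise named outside that rule with values known.

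Downstream, 5 of 27 tested interferon-stimulated genes were higher and 0 lower. Their median was 0.47 on the log2 scale, and 24 of the 27 had positive values, beside 47.7% of all genes tested. The number called was 1 without diabetic 4, 2 without control 3 or diabetic 1, and 3 without control 1 or 5. Library weights raised it to 10 and voom to 7, while the replicate block gave 0 and the fit with no filter 2 of 28. Ly6e, an interferon-induced membrane protein, had 257 ± 27.5 (SD, n = 5) and 484 ± 66.6 FPKM (SD, n = 4; adjusted p = 0.0055 by limma), and Zbp1, a sensor of Z-form nucleic acid, 14.7 ± 2.51 (SD, n = 5) and 37.8 ± 12.9 FPKM (SD, n = 4; adjusted p = 0.018). Ly6e passed in all 9 fits that left out 1 library, and Zbp1 in all but the one without diabetic 4. Xaf1, a pro-apoptotic interferon-induced gene, rose with a log2 fold change of 0.84 (6 of 9 fits) and Ifi35 with one of 0.47 (2 of 9 fits).

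The mean of the 27 genes, in log2 units from the control mean, was 0.59, -0.033, 0.81 and 0.50 in diabetic 1 to 4 and 0.078, 0.096, -0.32, 0.14 and 0.014 in control 1 to 5. Ranked by this mean, the 9 libraries stood in the same order as when ranked by Irf7, from diabetic 3 at the top to control 3 at the bottom, with diabetic 2 below 4 controls in both. None of the other 7 members gave that order. Irf7 is itself an interferon-stimulated gene and was not on the list. This likeness was seen in the values and not tested.

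Of 24 tested targets of Irf1 and gamma interferon, 4 were higher and 0 lower, and their median was 0.30 on the log2 scale. The number called was 2 without diabetic 1 or 4, 7 without diabetic 2 and 6 without control 2. The mean of the 24 genes, in log2 units from the control mean, was 0.41, 0.014, 0.59 and 0.44 in diabetic 1 to 4. In the controls it was -0.10 to 0.12. By this mean diabetic 2 lay inside the control range, whereas its Irf1 lay above every control. Igtp, an immunity-related GTPase, had 17.8 ± 2.53 (SD, n = 5) and 41.5 ± 7.52 FPKM (SD, n = 4), with a log2 fold change of 1.17 (SE 0.14) that passed at adjusted p = 0.0033 by limma. Igtp and Nlrc5 (log2 fold change 0.82, adjusted p = 0.0050) passed in all 9 fits that left out 1 library. Tap1 (log2 fold change 0.63, adjusted p = 0.019) lost its call without diabetic 1 or 4. Gbp4, a guanylate-binding protein, was low, with 0.379 to 0.697 FPKM in control and 1.16 to 2.87 FPKM in diabetic libraries (log2 fold change 0.92, adjusted p = 0.019 by limma), and passed in the 5 of those fits whose filter kept it. It was under 1 FPKM in every control and entered the fit only through its level in the diabetic group, so its call is a description. In Igtp diabetic 4 was the highest library (52.3 FPKM) and diabetic 3 the lowest diabetic one (35.8 FPKM), an order unlike that of Irf7.

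Of 17 genes of Irf4 and alternative activation, 0 were higher and 2 lower (median log2 fold change -0.029). These were Mrc1, the mannose receptor, and Retnla, whose control libraries ran from 478 to 4683 FPKM, and single omissions of a library left the call of Mrc1 in 1 of 9 fits and that of Retnla in 3. Without control 2 the list had 1 higher and 1 lower, without control 1 it had 0 and 1, and without control 3, 4 or 5 or diabetic 1, 2 or 4 it had 0 and 0. Of 9 inflammatory targets of Irf5, 1 was higher and 0 lower (median 0.089). The count was 2 without diabetic 3. The one called over all 9 libraries was Ccl5, a chemokine that T and NK cells also make, with 45.9 ± 8.54 (SD, n = 5) and 89.7 ± 19.4 FPKM (SD, n = 4; adjusted p = 0.017 by limma). Of 18 myeloid targets of Irf8, 1 was higher and 0 lower (median -0.091), Pml, with 16.2 ± 1.97 (SD, n = 5) and 23.8 ± 2.94 FPKM (SD, n = 4; adjusted p = 0.032), which passed in 3 of the 9 fits. The list had 2 higher and 0 lower without diabetic 3, 2 and 1 without control 2 and diabetic 3, and 0 and 0 without control 2, 3 or 4 or diabetic 1, 2 or 4.

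Among 22 tested lineage partners of Irf4 and Irf8, 2 were higher and 1 lower (median 0.025). Without diabetic 3 they were 5 and 2, without control 2 and diabetic 3 they were 4 and 2, and without control 3 or 4 or diabetic 1 or 2 they were 0 and 0. They were 1 and 1 without control 2, and 1 and 0 without control 5 or diabetic 4. Batf3, the partner of Irf8 in cross-presenting dendritic cells, had 18.1, 30.0, 30.2, 26.3 and 25.6 FPKM in control 1 to 5 and 10.8, 6.55, 17.3 and 12.2 FPKM in diabetic 1 to 4. It fell while Irf8 lay higher in the same libraries, and 3 of the 9 fits with a library omitted kept its call. The risers were Bach2, a repressor in lymphocytes (1.52 ± 0.362 and 3.37 ± 0.998 FPKM, SD, n = 5 and 4), and Id3, an inhibitor of E proteins (5.00 ± 1.87 and 12.3 ± 4.53 FPKM, SD, n = 5 and 4). Of 20 negative regulators and binding proteins 1 was higher and 0 lower (median 0.084), Usp18, which limits signalling of the type I interferon receptor (7.49 ± 1.96 and 13.4 ± 2.78 FPKM, SD, n = 5 and 4; adjusted p = 0.042). It passed in 1 of the 9 fits, and the list had 2 higher without control 2 and diabetic 3. Bach2 passed in 3 of them and Id3 in 2.

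**Figure D5:**
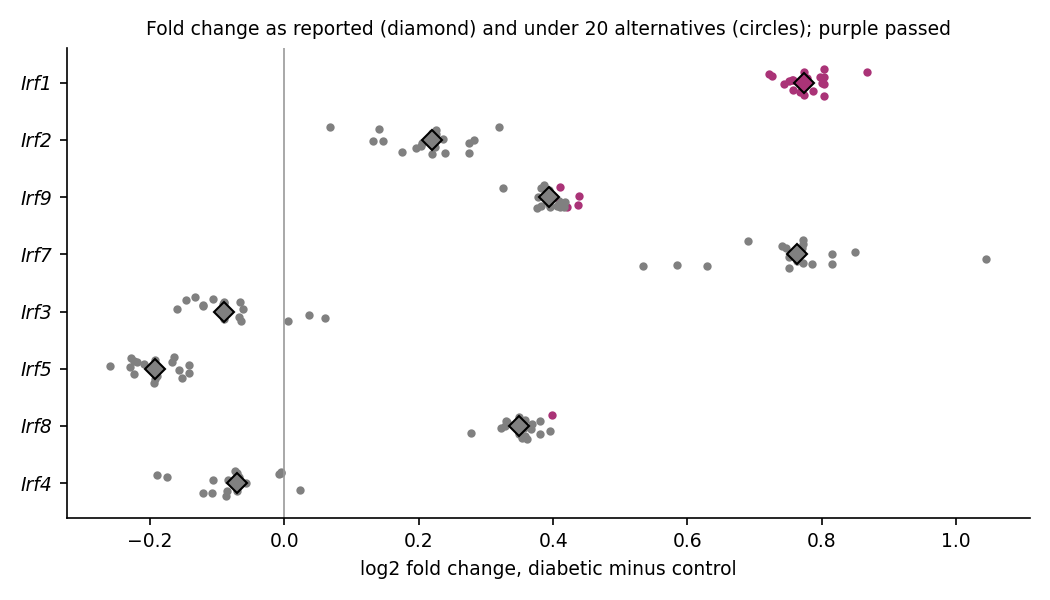
Log2 fold change of each member (horizontal axis) as reported (diamond) and under 20 alternative settings (circles), with purple for fits in which it passed. Irf1 passed in all 20 (0.72 to 0.87), Irf9 in 5, Irf8 in 1 and the other 5 members in none.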

How the data were processed

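The authors deposited 1 table of FPKM values for 41096 genes in 9 libraries made with an mRNA kit, per the labels' protocols, with gene length, position, strand and biotype per the file headers. Which aligner and counter were used, and whether with strand, is not given in the sources used here. Every one of the 9 value columns matched a sample title (0 unmatched). Gene length, of unit other in the deposited table, is in bases. FPKM times that length gave whole reads back (100% of values within 0.05 of a whole number), 14156421 to 16169060 per library. The deposited FPKM were already scaled between libraries by median-of-ratios size factors. Precision follows from these reads, and PCR copies cannot be told apart.

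Diabetic and control libraries were compared by limma 3.58.1 (R 4.3.3; lmFit, then eBayes with trend and robust moderation) on log2(FPKM + 1), over the 11193 genes that reached an FPKM of 1 in 4 or more libraries. Tests were two-sided, with Benjamini-Hochberg adjustment over all of them and a threshold of 0.05. The fit was also run on simulated reads, drawn independently for each gene and library, with no outlying library or shift in cell content. The outcome is not reported here and carries no weight for the calls. Lists were described by counts and medians, with no list test. Named genes were the 8 members, the genes of each pathway list that passed (the 4 with the smallest p at most), genes overlapping a member, and the 3 most like Irf1. Stat2, Ifnar1 and Ifnar2 are marked as outside this rule. Cell type markers on no pathway list, and Ifnb1 and Ifng, are outside it too. Python 3.11.15 drew figures and counted promoter matches. Members and lists were chosen with earlier results of these data known. Alternatives were pseudocounts of 0.1 and 0.01, other filters, other scalings, library weights (limma's array weights), plain moderation, voom, a replicate block and leaving out libraries. Some genes of the table and of 1 pathway list are not reported here.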

Additional observations from a re-analysis of the deposited data

How the results depend on the processing

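Irf1 passed under all 20 alternatives, and Irf2, Irf5, Irf7, Irf8 and Irf9 kept their direction in all 20. Irf9 (0.39, adjusted p = 0.057) passed after quantile normalization (0.42), with library weights (0.40), by voom on whole reads (0.41) and without both control 2 and diabetic 3 (0.44, chosen after seeing the data). Leaving out 1 library gave 0.32 to 0.44. Irf8 passed with library weights (0.40). The count of members called higher was 1, but 2 after quantile normalization, 3 with library weights, 2 by voom, 2 without control 2 and diabetic 3, and 1 to 2 over the fits that left out 1 library. Irf3 turned positive with library weights (0.0061) and without control 2 and diabetic 3 (0.060), and ran from -0.16 to 0.036 when 1 library was left out. Irf4 ran from -0.19 to 0.023 in those fits.

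Over all genes, 533 passed (300 higher, 233 lower). The counts were 183 (129 and 54) with no filter, where 22471 genes were tested, 1304 (677 and 627) with library weights, 1144 (597 and 547) without control 2 and diabetic 3, and 62 (45 and 17) with the replicate number as a block. The stricter filter gave 187 higher. Leaving out 1 library gave 115 (without diabetic 4) to 1126 (without diabetic 3) in all, 71 to 584 higher and 35 to 542 lower. The cause was not tested. Rescaling to the same sum of FPKM moved the share of calls that were higher from 56.3% to 46.2%. Numbers 1 to 4 recur in both groups, but no label says that a number pairs libraries, so the numbers were not taken as pairs. The deviations of same-numbered libraries correlated at 0.023, 0.16, -0.26 and -0.18, beside -0.30 to 0.33 for libraries of different numbers. These values cannot decide whether the design was paired. With the replicate block Irf1 had a log2 fold change of 0.80 (adjusted p = 0.042 by limma) and no other member passed. Under that block 1 of 22 T cell markers, 0 of 18 B cell markers and 2 of 12 NK cell markers passed as higher. So did 0 of 27 interferon-stimulated genes and 1 of 24 targets of Irf1 and gamma interferon. For the interferon genes a difference was not detectable at this depth, and low expression could not be told apart from low depth.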

Other observations

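Plasma cell and plasmacytoid dendritic cell markers, from cells known for high Irf4 or Irf7, passed in 0 of 7 and 0 of 6 tested by limma. Both counts were 1, higher, without diabetic 3 and without control 2 and diabetic 3. Siglech, which defines plasmacytoid dendritic cells, stood at 0.160 to 1.42 FPKM over the 9 libraries. Of the 7 plasma cell markers tested, 4 had positive and 3 negative log2 fold changes (median 0.0015). Rescaling to the same sum of FPKM called 1 of them lower. Sdc1, with the smallest p of these 7, had 16.5 ± 4.81 (SD, n = 5) and 10.1 ± 2.07 FPKM (SD, n = 4). It did not pass (adjusted p = 0.085 by limma). Jchain, of plasma cells, was highest in diabetic 1 (24.5 FPKM), and the other 8 libraries held at most 5.06 FPKM.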
